A study of Mus musculus with 6 samples.

Results

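The genes of the proteasome and of its interferon-inducible variant, the immunoproteasome, were examined in MCA205 tumors with and without FF-10101. The members were chosen by name, as the protein-coding genes whose symbol starts with Psma to Psmg followed by a digit, and 50 of the 54309 gene identifiers in the deposited table met this rule. They comprise 32 genes grouped as constitutive subunits of the 20S core and the 19S regulatory particle, 5 interferon-inducible genes (*Psmb8*, *Psmb9*, *Psmb10*, *Psme1* and *Psme2*), and 13 other genes, which are assembly chaperones, other activators, an inhibitor, a retrogene and a thymus-specific subunit among them. The 32 include *Psma8*, a testis variant, which was too low to be tested, so the 31 tested ones are without it. *Psmc3ip* meets the rule by its symbol but encodes a recombination cofactor and not a subunit. MCA205, a transplantable mouse fibrosarcoma cell line, was inoculated subcutaneously as 1000000 cells into female C57BL/6J mice 7 weeks old. From day 1 to day 8 the drinking bottle of the control mice held MilliQ water, and that of the treated mice held FF-10101 at 0.1 mg/mL. FF-10101 is a kinase inhibitor first developed against the receptor FLT3 that also blocks the macrophage growth factor receptor CSF1R. Whole tumors of 3 mice per group were collected on day 8 for RNA sequencing. Each value is a sum over all cells of the tumor, so fewer cells of a type and less RNA per cell cannot be told apart.

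The proteasome degrades proteins that carry ubiquitin. Its 20S core is a stack of alpha and beta rings, and in most cells the proteolytic sites are formed by the beta subunits encoded by *Psmb5* (β5, chymotrypsin-like), *Psmb6* (β1, caspase-like) and *Psmb7* (β2, trypsin-like). In cells exposed to interferon-γ, newly built cores take up β5i (*Psmb8*), β1i (*Psmb9*) and β2i (*Psmb10*) in their place, and the ring of PA28α and PA28β (*Psme1* and *Psme2*) can cap the core. This immunoproteasome is known for cutting out peptides that fit MHC class I molecules, and leukocytes carry it without added interferon.

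Before the values, the sequences around the start sites of 5 members are shown, because they hold, at the positions in capitals, the short motifs for which the promoters were searched. The windows are from RefSeq on GRCm38.p6, run 5′ to 3′ on the strand of the gene, and hold 220 bases before the start site and 30 bases from it onward. *Psmb8* (chr17:34197975-34198224, plus strand) has a match to the GAS motif, known from genes that respond to interferon-γ, at bases −97 to −89. *Psme1* (chr14:55578274-55578523, plus strand) has a match to the ISRE motif, bound by interferon regulatory factors, at bases 10 to 19. *Psmb9* (chr17:34187301-34187550, minus strand) has a CCAAT box, here on the reverse strand, at bases −8 to −4. *Psmb5* (chr14:54617966-54618215, minus strand) and *Psmb6* (chr11:70525137-70525386, plus strand) each have an antioxidant response element (ARE) motif, at bases −47 to −39 and −9 to −1, the kind of site that NRF1 and NRF2 recognize.
Psmb8: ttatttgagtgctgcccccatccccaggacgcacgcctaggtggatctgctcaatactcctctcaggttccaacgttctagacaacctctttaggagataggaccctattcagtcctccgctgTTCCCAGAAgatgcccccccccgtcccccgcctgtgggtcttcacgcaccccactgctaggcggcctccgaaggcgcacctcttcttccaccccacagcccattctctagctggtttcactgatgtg
Psmb9: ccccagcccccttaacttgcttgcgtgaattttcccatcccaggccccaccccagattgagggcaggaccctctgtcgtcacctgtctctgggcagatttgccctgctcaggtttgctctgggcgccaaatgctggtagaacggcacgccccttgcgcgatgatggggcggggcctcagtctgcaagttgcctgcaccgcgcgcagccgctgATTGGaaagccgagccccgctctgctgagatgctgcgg
Psme1: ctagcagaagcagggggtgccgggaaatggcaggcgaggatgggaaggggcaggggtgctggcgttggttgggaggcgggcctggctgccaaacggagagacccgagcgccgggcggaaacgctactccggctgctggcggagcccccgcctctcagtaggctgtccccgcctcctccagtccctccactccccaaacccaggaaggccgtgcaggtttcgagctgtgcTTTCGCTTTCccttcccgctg
Psmb5: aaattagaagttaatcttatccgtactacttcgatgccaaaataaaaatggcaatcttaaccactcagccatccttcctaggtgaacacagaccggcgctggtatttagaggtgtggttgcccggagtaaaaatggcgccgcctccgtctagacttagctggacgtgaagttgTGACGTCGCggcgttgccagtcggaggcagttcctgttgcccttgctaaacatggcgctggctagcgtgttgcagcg
Psmb6: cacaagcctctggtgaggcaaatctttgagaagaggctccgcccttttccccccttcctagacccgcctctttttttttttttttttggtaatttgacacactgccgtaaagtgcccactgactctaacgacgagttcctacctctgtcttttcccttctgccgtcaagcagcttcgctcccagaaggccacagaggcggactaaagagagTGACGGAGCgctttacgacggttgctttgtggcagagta

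The motifs were searched as letters on both strands in windows from 250 bases before to 50 after each start site, and 42 of the 50 members had such a window. GAS was spelled TTCNNNGAA, ISRE was spelled GAAA, any 2 bases and GAAA, ARE was spelled TGACNNNGC, and the fourth was CCAAT, where N is any base and matches of different motifs may overlap. Among the 5 interferon-inducible genes, *Psmb8* was the 1 gene with a GAS match, *Psme1* the 1 with an ISRE match and *Psmb9* the 1 with a CCAAT box, and 0 had an ARE match. Of the 25 constitutive subunits with a window, 1 had a GAS match (*Psmd2*), 2 had an ISRE match (*Psmb3* and *Psmd4*), 4 had an ARE match (*Psmb5*, *Psmb6*, *Psmc6* and *Psmd12*) and 10 had a CCAAT box. Over all 32851 windows of the genome, 8.3% had a GAS, 3.44% an ISRE, 12.4% an ARE and 37.4% a CCAAT match, so such letters are common and a match is not a shown binding site. *Psmb9* lies head to head with *Tap1*, the gene of a subunit of the peptide transporter for MHC class I. Their start sites are 226 bases apart on opposite strands of chromosome 17, and their windows share 275 of 300 bases.

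Read depth was 9143806 to 9643535 reads in the control tumors and 9277019 to 13258258 reads in the FF-10101–treated tumors, 1.217 times as many on average in the treated group, and the members took 0.739% to 0.898% of the reads of a tumor. The values below are normalized counts, which are reads scaled by a size factor per tumor, and a count of 0 allows up to 2.29 to 3.38 normalized counts, for counting error only. Groups were compared with limma on log2(normalized count + 1) over 13963 genes that averaged 10 or more normalized counts, of which 48 were members, and p values were adjusted over all of them by the Benjamini-Hochberg method. Control tumor 1 stood apart from the other control tumors: leaving it out moved the number of genes past an adjusted p of 0.05 from 6 to 3051, so values without it are given beside the results whose call it changes. Of the 9 markers listed for fibrosarcoma and mesenchyme, none was at 0 in all tumors. Their summed counts were 122268 to 298484 in the control and 240484 to 343313 in the treated tumors. Mesenchymal cells of the host are summed with those of the tumor, so the markers do not test the label of the cell line.

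With all 6 tumors, none of the 48 members passed an adjusted p of 0.05 in limma, where 0.043% of all genes tested did. An unadjusted p under 0.05 was reached by 5 members with a lower level in the FF-10101–treated tumors (*Psma3*, *Psma7*, *Psmb4*, *Psmb5* and *Psmg4*), which is 10.4% of the members beside 7.49% of all genes tested. It was reached by 0 members with a higher level, beside 8.77% of all genes. The groups did not overlap for 5 members with lower treated tumors (*Psma3*, *Psma7*, *Psmb3*, *Psmb5* and *Psmg4*), 10.4% beside 9.37% of all genes, and for 2 with higher treated tumors (*Psmd11* and *Psme4*), 4.17% beside 10.9% of all genes. The shares of lower members were near the background, and those of higher members were under it. The 95% confidence interval of the log2 fold change lay within 1 either way, a change of less than 2-fold, for 40 of the 48 members.

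**Figure D1:**
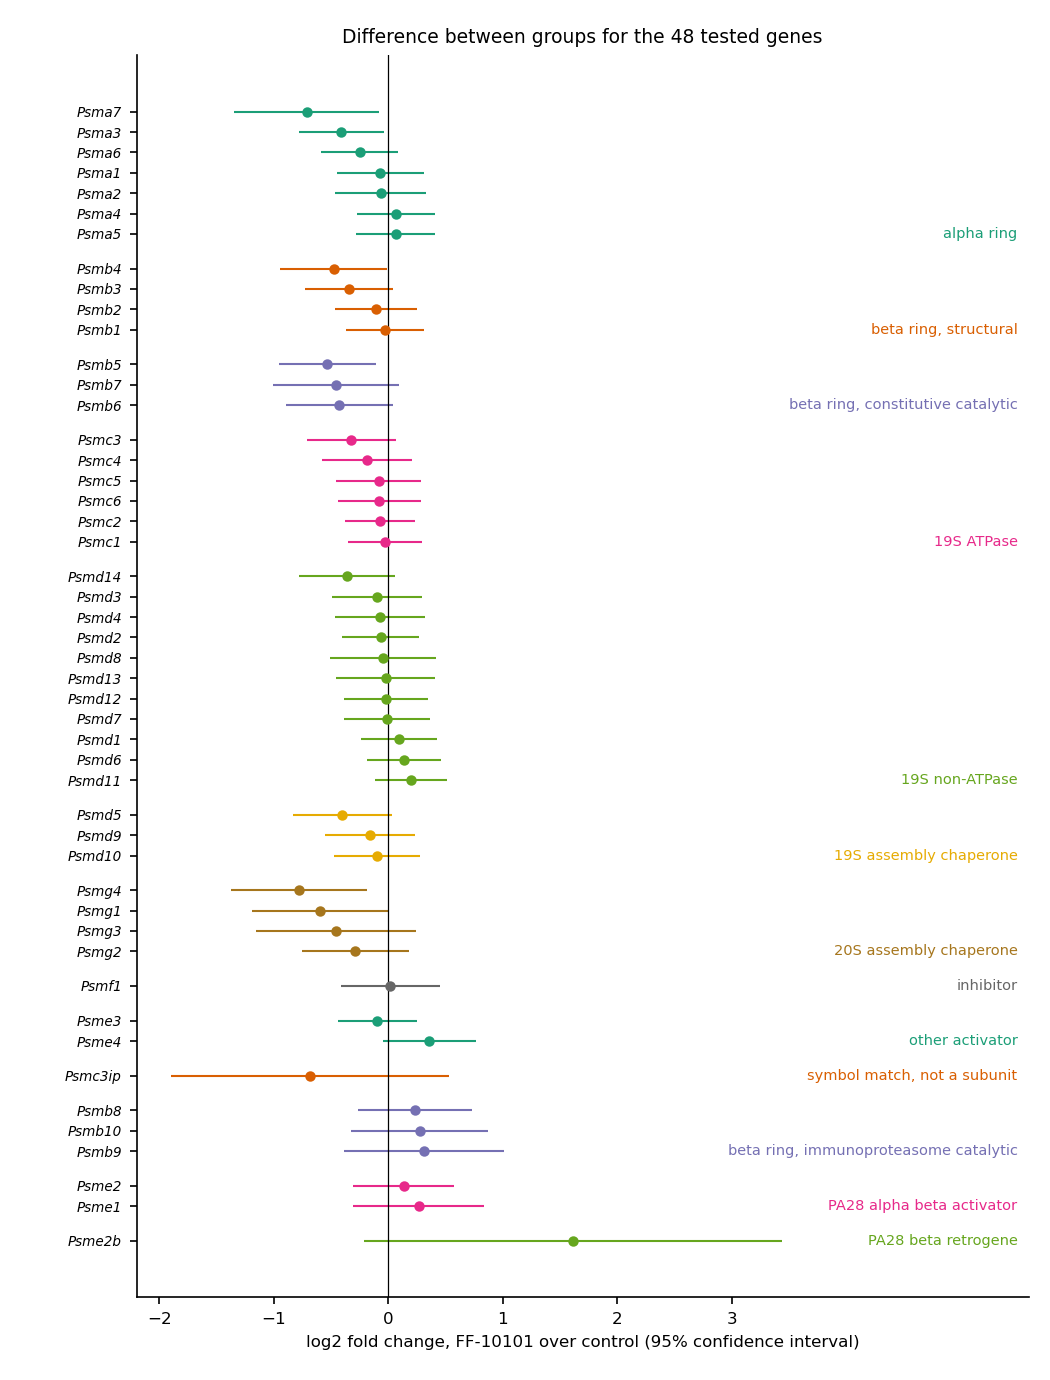
Log2 fold change of FF-10101–treated over control tumors (x axis) for each of the 48 tested genes (y axis), grouped by role. Points are limma estimates and bars are 95% confidence intervals (n = 3 tumors per group). The 5 interferon-inducible genes lie between 0.14 and 0.31, and 26 of the 31 constitutive 20S and 19S subunits lie below 0.

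The interferon-inducible genes were compared first. Their log2 fold changes were between 0.14 and 0.31 with a median of 0.27, while the median was −0.07 over the 31 tested constitutive subunits and 0.02 over all genes tested. Control tumor 1 was within or above the range of the treated tumors, so the groups overlapped for each of the 5 genes. Every treated tumor was above control tumors 2 and 3 for all 5 genes, an order that 28.4% of all genes tested also had.

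*Psmb8*, which encodes β5i, had 7124, 4363 and 4385 normalized counts in control tumors 1, 2 and 3 and 5891, 6124 and 6148 in FF-10101–treated tumors 1, 2 and 3. The treated tumors were close together, above control tumors 2 and 3 and below control tumor 1. Its log2 fold change was 0.23 (standard error 0.22, 95% confidence interval −0.26 to 0.73, adjusted p = 0.606 from limma). *Psmb9*, which encodes β1i, had 3625, 1614 and 1696 normalized counts in the control and 2956, 2626 and 2455 in the treated tumors. Control tumor 1 was again the highest and the other control tumors the lowest. The log2 fold change of *Psmb9* was 0.31 (standard error 0.30, 95% confidence interval −0.38 to 1.01, adjusted p = 0.623 from limma). *Psmb10*, which encodes β2i, had 4955, 2694 and 2933 normalized counts in the control and 5047, 3909 and 3524 in the treated tumors. Treated tumor 1 was the highest here, just above control tumor 1. The log2 fold change of *Psmb10* was 0.28 (standard error 0.26, 95% confidence interval −0.32 to 0.87, adjusted p = 0.614 from limma).

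*Psme1*, the PA28α gene, had 4481, 2283 and 2640 normalized counts in the control and 3659, 3484 and 3678 in the treated tumors. Its pattern was that of *Psmb8*, with the treated tumors between control tumor 1 and the others. The log2 fold change was 0.27 (standard error 0.25, 95% confidence interval −0.31 to 0.84, adjusted p = 0.611 from limma). *Psme2*, the PA28β gene, had 4317, 2923 and 3539 normalized counts in the control and 4561, 3617 and 3591 in the treated tumors. Here control tumor 3 was nearly level with treated tumors 2 and 3. The log2 fold change of *Psme2* was 0.14 (standard error 0.19, 95% confidence interval −0.31 to 0.58, adjusted p = 0.743 from limma), and it was −0.0037 without control tumor 2. *Psme2b*, a retrogene copy of *Psme2* that is 99.37% identical to it over 82.5% of the *Psme2* transcript, had 18.0, 5.43 and 6.66 normalized counts in the control and 8.40, 47.8 and 57.8 in the treated tumors. Its level was high in treated tumors 2 and 3 only, its groups overlapped (log2 fold change 1.62, standard error 0.79, adjusted p = 0.351 from limma), and its reads cannot be told with certainty from those of *Psme2*.

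**Figure D2:**
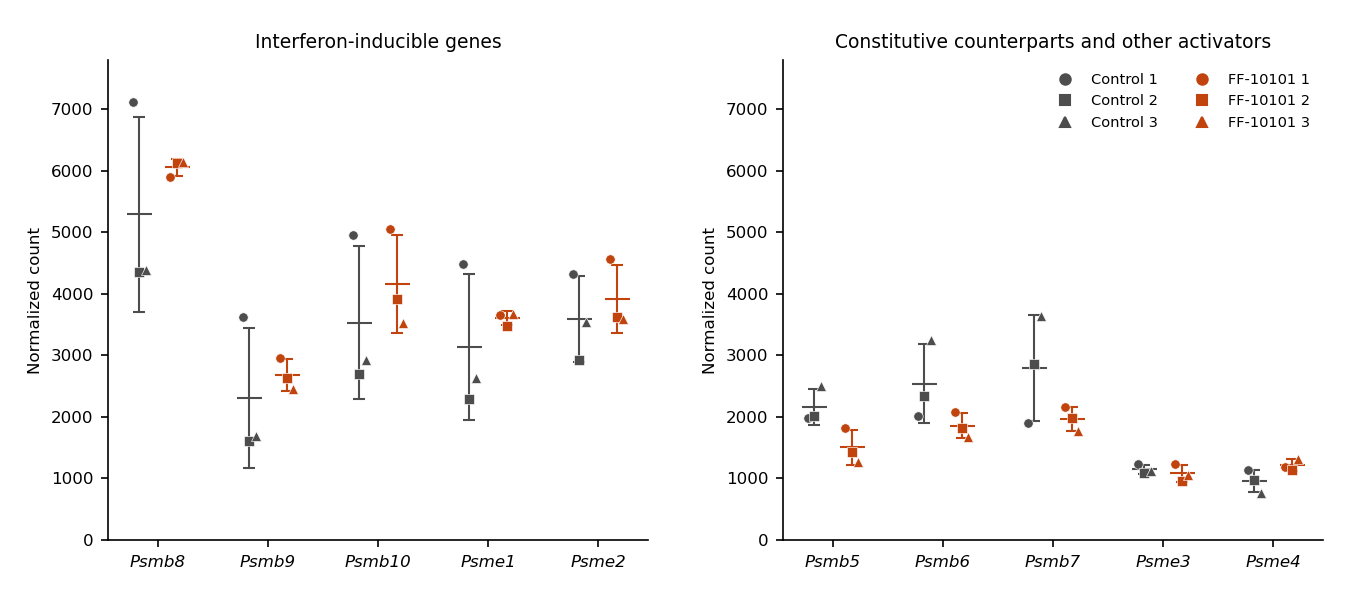
Normalized counts (y axis, linear) of the 5 interferon-inducible genes at left and of the constitutive catalytic subunits and other activators at right, in control tumors (grey) and FF-10101–treated tumors (orange); symbols mark the tumor number, and bars are the mean and SD (n = 3). For *Psmb8*, control tumor 1 (7124) lies above and control tumors 2 and 3 (4363 and 4385) lie below the 3 treated tumors (5891 to 6148).

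Of the single tumors, control tumor 1 moved the median of these genes most when left out. The log2 fold changes without it were 0.47 for *Psmb8*, 0.69 for *Psmb9*, 0.55 for *Psmb10*, 0.55 for *Psme1* and 0.28 for *Psme2*, with a median of 0.55, and *Psmb8*, *Psmb9* and *Psme1* passed (adjusted p = 0.0299, 0.0115 and 0.0208 from limma) while *Psmb10* and *Psme2* did not (0.0545 and 0.245). These were the 3 members that passed with a higher level without that tumor, 6.25% of the members beside 12% of all genes tested. Without control tumor 2 or control tumor 3 the median of the 5 genes was 0.11 or 0.14, and without any other single tumor 0 of the 48 members passed. *Psmb10* and *Psme2* did pass under other settings: all 5 genes were called higher with array weights, where 32% of all genes were, and with length and GC trends removed and control tumor 1 left out, where 13.1% were.

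Some sums of cell type markers followed these genes between the control tumors, and others did not. The summed normalized counts of 8 leukocyte markers were 33685, 15622 and 15707 in control tumors 1, 2 and 3 and 16160, 21513 and 23273 in treated tumors 1, 2 and 3. The 9 T and NK cell markers summed to 3521, 1377 and 1097 and to 1966, 3339 and 3931, with 9 of 9 higher in the treated group by log2 fold change. Both sums were higher in control tumor 1 than in the other control tumors, as were all 5 interferon-inducible genes. In treated tumor 1 the leukocyte sum was near those of control tumors 2 and 3. Its T and NK cell sum was above those of control tumors 2 and 3 and below those of the other treated tumors. The summed interferon-inducible genes were highest in treated tumor 1 among the treated tumors. The 9 macrophage markers summed to 39515 to 67693 in the control and to 24367 to 34655 in the treated tumors, with 8 of 9 lower in the treated group. The 6 dendritic cell markers summed to 374 to 716 and 359 to 492, the 5 B cell markers to 47.3 to 69.5 and 40.2 to 72.0, and the 6 neutrophil markers to 1927 to 2276 and 2737 to 3196. The 5 endothelial markers summed to 4315, 1733 and 1235 in the control and to 4294 to 5034 in the treated tumors, so that control tumor 1 was also near the treated tumors for these. Markers of neighboring tissue ranged from 2428 to 8236 for skeletal muscle, 19.6 to 987 for keratinocytes and 250 to 1172 for adipocytes over the 6 tumors. No marker in these lists was at 0 in every tumor, and the part of these cells in the results was not tested.

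The constitutive counterparts of the immunosubunits had lower means in the treated tumors, without passing the test over all genes. *Psmb5*, which encodes β5, had 1979, 2014 and 2505 normalized counts in the control and 1820, 1427 and 1268 in the treated tumors. All treated tumors were below all control tumors, and the log2 fold change was −0.53 (standard error 0.18, 95% confidence interval −0.96 to −0.11, adjusted p = 0.250 from limma). *Psmb6*, which encodes β1, had 2019, 2344 and 3256 normalized counts in the control and 2073, 1826 and 1676 in the treated tumors (log2 fold change −0.43, standard error 0.20, adjusted p = 0.338 from limma). *Psmb7*, which encodes β2, had 1903, 2857 and 3633 and then 2164, 1979 and 1772 normalized counts (log2 fold change −0.46, standard error 0.24, adjusted p = 0.368 from limma). For *Psmb6* and *Psmb7*, control tumor 1 lay within the treated tumors and control tumor 3 was the highest of all. Without control tumor 1, *Psmb6* and *Psmb7* passed (log2 fold changes −0.58 and −0.71, adjusted p = 0.0485 and 0.0170 from limma) and *Psmb5* did not (−0.59, adjusted p = 0.0526). Without control tumor 3, the log2 fold changes of *Psmb6* and *Psmb7* were −0.23 and −0.25.

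As an immunosubunit and its counterpart compete for 1 position in the core, their ratio was taken within each tumor, which removes any scaling of the library. The ratio of *Psmb8* to *Psmb5* normalized counts was 3.60, 2.17 and 1.75 in control tumors 1, 2 and 3 and 3.24, 4.29 and 4.85 in treated tumors 1, 2 and 3. Control tumor 1 lay between treated tumors 1 and 2. The difference in mean log2 ratio was 0.77 (exact permutation test, two-sided p = 0.2), from 1.26 ± 0.53 in the control to 2.02 ± 0.30 in the treated tumors (SD, n = 3). The ratio of *Psmb9* to *Psmb6* was 1.79, 0.688 and 0.521 in the control and 1.43, 1.44 and 1.46 in the treated tumors, and that of *Psmb10* to *Psmb7* was 2.60, 0.943 and 0.807 and then 2.33, 1.98 and 1.99. For both pairs, control tumor 1 exceeded all treated tumors, and control tumors 2 and 3 had the lowest ratios. The differences were 0.74 and 0.74 on the log2 scale (exact permutation test, two-sided p = 0.4 and 0.4). The ratios of *Psme1* and *Psme2* to *Psme3*, the gene of the PA28γ activator of the nucleus, differed by 0.36 and 0.23 (exact permutation test, two-sided p = 0.4 and 0.2). For the 5 ratios compared the adjusted p was 0.4 each, and 0.1 is the smallest p that 3 tumors against 3 allow. Without control tumor 1 the 5 differences were 1.06, 1.27, 1.26, 0.60 and 0.32, in the order given. With trends of transcript length and GC content removed, an alternative chosen after seeing the data, the log2 fold changes were 0.45 for *Psme1*, 0.32 for *Psme2* and −0.12 for *Psme3*. These lie farther apart than without the removal.

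Per kilobase of transcript, the immunosubunit share of the *Psmb8* and *Psmb5* pair was 66.5%, 54.5% and 49.2% in the control and 64.1%, 70.3% and 72.8% in the treated tumors. The share of *Psmb9* in its pair with *Psmb6* was 51.4%, 28.9% and 23.5% in the control and 45.7%, 45.9% and 46.4% in the treated tumors. The share of *Psmb10* in its pair with *Psmb7* was 69.7%, 45.5% and 41.7% in the control and 67.4%, 63.6% and 63.8% in the treated tumors. In all 3 pairs the control tumors were spread over a wider range than the treated tumors, and control tumors 2 and 3 had the lowest shares. These shares are of transcripts and not of assembled subunits.

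**Figure D3:**
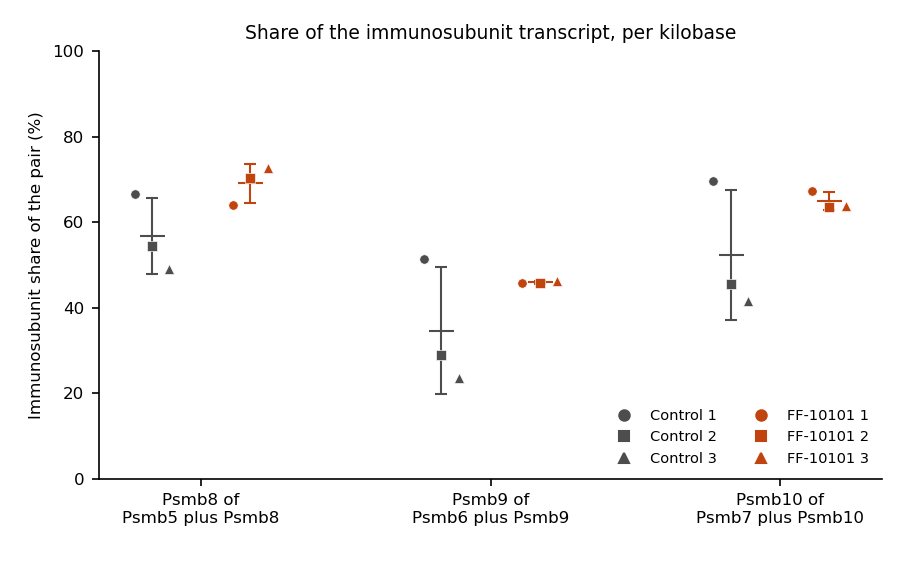
Share of the immunosubunit transcript in each of 3 pairs (y axis, percent of the pair's normalized count per kilobase) in control tumors (grey) and FF-10101–treated tumors (orange); symbols mark the tumor number, and bars are the mean and SD (n = 3). Control tumors 2 and 3 lie lowest in each pair, and control tumor 1 lies with or above the treated tumors.

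The alpha ring, which gates the entrance of the core, had a median log2 fold change of −0.07 over 7 tested genes, of which 5 were below 0. *Psma7*, which encodes α4, had 2388, 3628 and 5320 normalized counts in the control and 2384, 2130 and 2060 in the treated tumors. The groups did not overlap, but control tumor 1 and treated tumor 1 differed by only a few counts, and the control tumors alone covered more than a doubling. The log2 fold change of *Psma7* was −0.71 (standard error 0.27, 95% confidence interval −1.34 to −0.08, adjusted p = 0.275 from limma), and −1.01 without control tumor 1 (adjusted p = 0.00862) and −0.43 without control tumor 3 (adjusted p = 0.640). *Psma3*, which encodes α7, had 1717, 1561 and 1707 normalized counts in the control and 1502, 1175 and 1105 in the treated tumors (log2 fold change −0.41, adjusted p = 0.282 from limma). Unlike *Psma7*, it was nearly level among the control tumors. *Psma4* and *Psma5*, which encode α3 and α5, had log2 fold changes of 0.07 each. *Psma8*, the testis variant of *Psma7*, was under the minimum with 3.38, 6.52 and 12.2 normalized counts in the control and 6.11, 3.26 and 9.78 in the treated tumors.

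The structural beta subunits had a median of −0.23 over 4 genes. *Psmb4*, which encodes β7, had 3870, 4150 and 5491 normalized counts in the control and 3936, 2962 and 2807 in the treated tumors (log2 fold change −0.48, standard error 0.20, adjusted p = 0.301 from limma), and *Psmb3*, which encodes β3, had 1946, 1933 and 2510 and then 1906, 1564 and 1550 (log2 fold change −0.34, standard error 0.17, adjusted p = 0.351). Both were highest in control tumor 3, and without it they had −0.33 and −0.22. *Psmb1* and *Psmb2* had log2 fold changes of −0.03 and −0.11. *Psmb11*, the catalytic subunit of the thymus, had 0 reads in each control tumor and 1, 4 and 0 reads in the treated tumors. The 4 reads of treated tumor 2 exceed the 3 that a count of 0 allows, and those of the other tumors do not.

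In the 19S particle, which recognizes, unfolds and deubiquitinates substrates, the differences were smaller. The median log2 fold change was −0.08 over the 6 ATPases (*Psmc1* to *Psmc6*), all below 0, and −0.02 over the 11 non-ATPase subunits, of which 3 were above 0. None of these 17 genes had an unadjusted p under 0.05. The lowest was *Psmd14*, the deubiquitinase of the lid, with 1020, 1298 and 1549 normalized counts in the control and 1062, 915 and 991 in the treated tumors (log2 fold change −0.36, adjusted p = 0.357 from limma). It was the 1 subunit of the particle that passed without control tumor 1 (log2 fold change −0.52, adjusted p = 0.0357), and it had −0.22 without control tumor 3 (adjusted p = 0.770). *Psmd11*, a lid subunit whose level is known to limit assembly of the complete proteasome in some cells, had 964, 887 and 846 normalized counts in the control and 1097, 981 and 1012 in the treated tumors. Each treated tumor was above each control tumor, by a small margin (log2 fold change 0.20, standard error 0.14, adjusted p = 0.492 from limma). *Psmd6*, another lid subunit, had 865, 1012 and 1028 and then 1068, 1096 and 1022 normalized counts (log2 fold change 0.14, adjusted p = 0.642 from limma, and 0.06 without control tumor 1). *Psmd1*, the largest subunit of the base, had 1708, 1682 and 1449 and then 1867, 1600 and 1705 (log2 fold change 0.10, adjusted p = 0.754 from limma, and 0.02 without control tumor 3). The intervals exclude a 2-fold change for 29 of the 31 tested constitutive subunits of core and particle.

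The 14 constitutive core subunits had a median log2 fold change of −0.30, with 12 below 0 and 4 lower at an unadjusted p under 0.05, where 7.49% of all genes were. The 17 particle subunits had a median of −0.07, with 14 below 0 and 0 past that threshold. Relative to each gene's mean over the 6 tumors, the core subunits averaged 0.03, 0.02 and 0.35 on the log2 scale in control tumors 1, 2 and 3 and 0.02, −0.19 and −0.23 in treated tumors 1, 2 and 3. The particle subunits averaged 0.01, −0.02 and 0.10 in the control and 0.12, −0.10 and −0.11 in the treated tumors. Treated tumors 2 and 3 were the low ones for both, while the highest was control tumor 3 for the core and treated tumor 1, just above control tumor 3, for the particle. Of the 31 subunits, 16 had their highest level in control tumor 3 and 13 their lowest in treated tumor 3, and the median ratio of highest to lowest tumor was 1.36. The interferon-inducible genes had another order, averaging 0.40, −0.45 and −0.32 in the control and 0.25, 0.07 and 0.04 in the treated tumors.

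Transcript length went along with the difference between core and particle. The median length was 1162.5 bases for the core and 1819 bases for the particle subunits, and across the 31 genes the log2 fold change had a Spearman's rho of 0.49 with length, beside 0.27 across 13928 genes. Both are descriptions, since all genes come from the same 6 libraries. With the trends of length and GC content removed from each tumor, an alternative chosen after seeing the data, the median log2 fold change of the core subunits was −0.12, with 10 of 14 below 0, that of the particle subunits 0.03, with 6 of 17 below 0, and that of the interferon-inducible genes 0.45. By the same removal *Psmb3* had −0.11, *Psmb5* −0.26, *Psmb6* −0.17 and *Psme4* 0.18, and the 4 structural beta subunits had a median of −0.06. The 7 proliferation markers also varied, with summed normalized counts of 6942, 11027 and 11832 in the control and 8027, 5444 and 5591 in the treated tumors, high in control tumors 2 and 3 and low in treated tumors 2 and 3. The part of either in the results was not tested.

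The assembly chaperones of the core had a median of −0.52 over 4 genes, all below 0. *Psmg4* (PAC4), which helps the alpha ring form, had 387, 534 and 738 normalized counts in the control and 373, 302 and 265 in the treated tumors. The groups did not overlap, with a narrow gap between control tumor 1 and treated tumor 1 (log2 fold change −0.78, standard error 0.26, adjusted p = 0.242 from limma; −1.01 without control tumor 1, adjusted p = 0.0137). *Psmg1* (PAC1) had 216, 246 and 367 normalized counts in the control and 226, 152 and 164 in the treated tumors, with overlap (log2 fold change −0.60, standard error 0.26, adjusted p = 0.309 from limma; −0.37 without control tumor 3). *Psmg2* and *Psmg3*, which encode the partners of PAC1 and PAC4, had log2 fold changes of −0.29 and −0.45 (−0.39 and −0.73 without control tumor 1), and *Psmg3* had −0.21 without control tumor 3. The 19S chaperones *Psmd5*, *Psmd9* and *Psmd10* had −0.40, −0.16 and −0.10, and *Psmd5* passed without control tumor 1 (−0.55, adjusted p = 0.0420 from limma).

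Of the other activators, *Psme4*, which encodes PA200, a cap known for degradation of acetylated histones, had 1138, 968 and 769 normalized counts in the control and 1185, 1145 and 1322 in the treated tumors. Every treated tumor exceeded every control tumor, with control tumor 1 just below (log2 fold change 0.36, standard error 0.18, 95% confidence interval −0.05 to 0.77, adjusted p = 0.351 from limma; 0.21 without control tumor 3). *Psme3* (PA28γ) had 1234, 1095 and 1126 and then 1240, 962 and 1049 normalized counts (log2 fold change −0.09, standard error 0.15, adjusted p = 0.777 from limma). *Psmf1*, which encodes the inhibitor PI31, had a log2 fold change of 0.02 (95% confidence interval −0.41 to 0.45). *Psmc3ip*, the recombination cofactor, had 75.4, 203 and 338 normalized counts in the control and 153, 106 and 76.4 in the treated tumors (log2 fold change −0.68, standard error 0.52, adjusted p = 0.539 from limma). Its highest control tumor had 4.49 times the level of its lowest, and the log2 fold change was −1.28 without control tumor 1 (adjusted p = 0.0300) and −0.20 without control tumor 3 (adjusted p = 0.929).

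Without control tumor 1, 7 members passed an adjusted p of 0.05 with a lower level in the treated tumors (*Psma7*, *Psmb6*, *Psmb7*, *Psmc3ip*, *Psmd14*, *Psmd5* and *Psmg4*), 14.6% beside 9.88% of all genes tested. With the 3 higher ones, 10 members passed. That fit drops 1 of 3 control tumors, singled out after the data were seen, and takes the spread of the control group from the remaining 2.

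**Figure D4:**
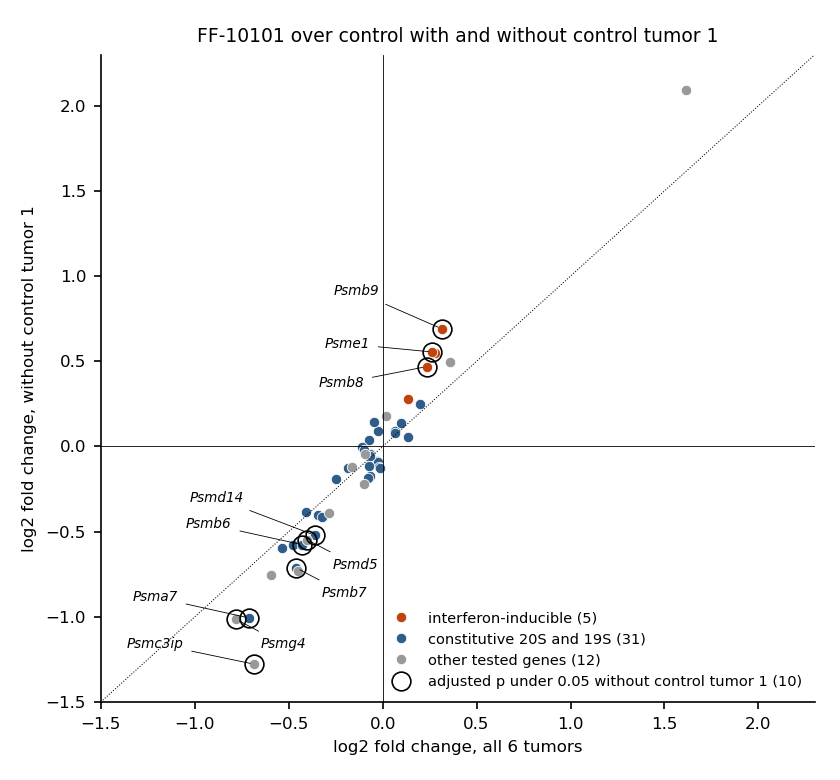
Log2 fold change (FF-10101–treated over control) of the 48 tested genes with all 6 tumors (x axis) and without control tumor 1 (y axis); the dotted line marks equal values and circles mark the 10 genes with an adjusted p under 0.05 without that tumor. The 5 interferon-inducible genes (orange) lie above the line, and the 7 circled genes with lower treated levels lie below it.

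Levels between genes were compared as normalized counts per kilobase of the longest protein-coding transcript. The interferon-inducible genes had means over the 6 tumors of 3906 for *Psme2*, 3484 for *Psmb8*, 3031 for *Psme1*, 2932 for *Psmb10* and 1846 for *Psmb9*. Within the constitutive catalytic subunits the mean level was 2756 for *Psmb6*, 2056 for *Psmb7* and 2041 for *Psmb5*. The alpha ring ranged from 513 (*Psma3*) to 2580 (*Psma7*), without *Psma8*, and the structural beta subunits from 1316 (*Psmb2*) to 3271 (*Psmb4*). The order differed by group: in the control tumors *Psmb4* (3807) was above *Psme2* (3735) and *Psma7* (3266) above *Psmb8* (3250), while in the treated tumors *Psme2* (4078) and *Psmb8* (3719) were highest. The particle was lower, from 538 (*Psmc6*) to 1260 (*Psmc3*) for the ATPases and from 339 (*Psmd11*) to 1294 (*Psmd7*) for the non-ATPase subunits, with a median of 844 beside 1885 for the core. Chaperones lay between 176 (*Psmd5*) and 780 (*Psmg4*), *Psme3* at 419, *Psme4* at 168 and the inhibitor *Psmf1* at 96.1. Levels of genes with several transcripts depend on the length taken, and the spread between tumors exceeds the gap between neighbors in this order such as *Psmb5* and *Psmb7*.

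**Figure D5:**
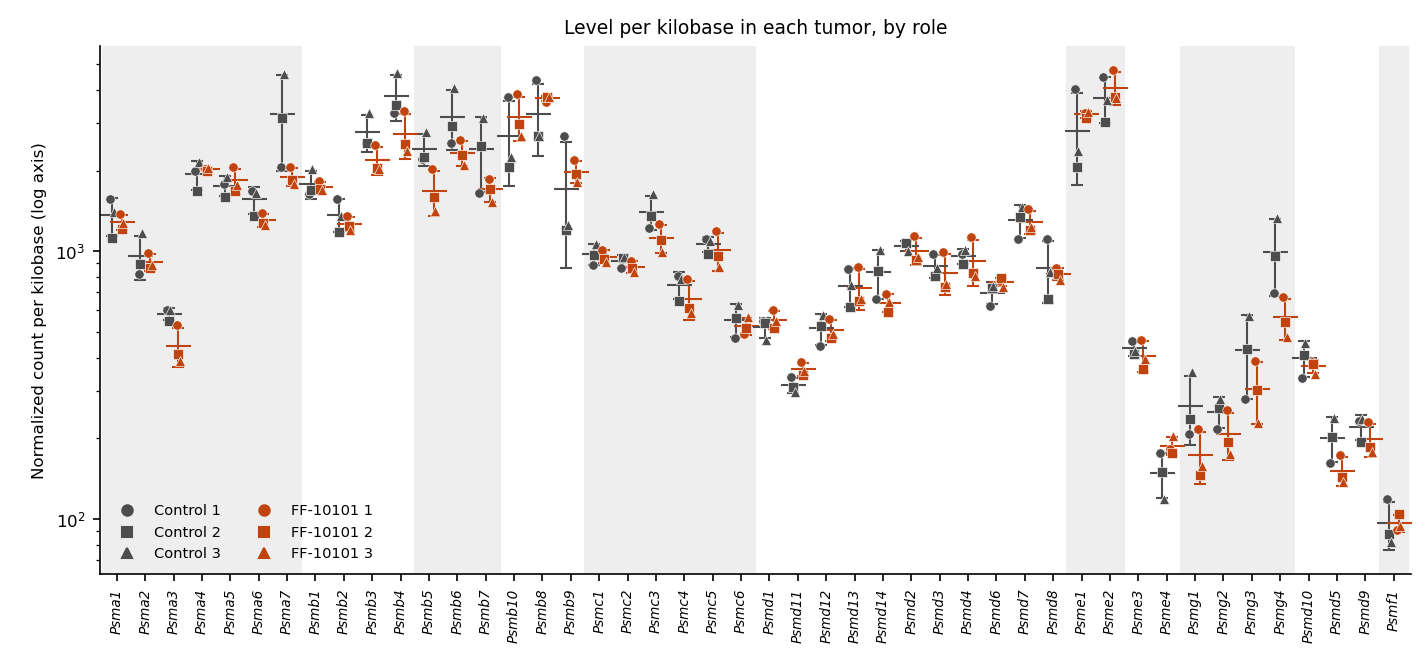
Normalized counts per kilobase (y axis, log scale) of the tested subunits, activators, chaperones and inhibitor in each control tumor (grey) and FF-10101–treated tumor (orange), ordered by role along the x axis with alternate shading; symbols mark the tumor number, and bars are the mean and SD (n = 3). The 19S subunits (median 844) lie below the constitutive core subunits (median 1885), and the highest bars are *Psmb4* (3807) in the control tumors and *Psme2* (4078) in the treated tumors.

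Genes around the proteasome were read from lists written by role. In the interferon-γ route to these genes, 6 of 7 genes had a log2 fold change above 0, with a median of 0.72, 4 had an unadjusted p under 0.05 in the higher direction and 1, *Ifngr2*, in the lower, beside 8.77% and 7.49% of all genes, and 0 passed after adjustment. Without control tumor 1, 5 of the 7 passed after adjustment in the higher direction and 1 in the lower, beside 12% and 9.88% of all genes. *Ifng* had 146, 25 and 11.1 normalized counts in the control and 132, 115 and 188 in the treated tumors (log2 fold change 1.99, adjusted p = 0.290 from limma; 3.01 without control tumor 1, adjusted p = 0.0027; 1.21 without control tumor 3, adjusted p = 0.679). Control tumor 1 was within the range of the treated tumors and control tumors 2 and 3 were far below it. *Irf1*, a transcription factor known to drive *Psmb9*, had 4856, 2518 and 2417 and then 6349, 4557 and 5107 normalized counts (log2 fold change 0.77, adjusted p = 0.263 from limma; 1.10 without control tumor 1, adjusted p = 0.0046). *Nlrc5*, the transactivator of MHC class I genes, had 710, 502 and 486 and then 1052, 857 and 868, with groups that did not overlap (log2 fold change 0.72, adjusted p = 0.229; 0.90 without control tumor 1, adjusted p = 0.0064).

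Of 10 genes that supply peptides to MHC class I or form it, 10 had a log2 fold change above 0, with a median of 0.34, and 0 had an unadjusted p under 0.05. When control tumor 1 was left out, 5 of the 10 passed after adjustment in the higher direction, beside 12% of all genes. Without control tumor 3 the median was 0.22 and 1 gene was below 0 (*H2-D1*, −0.04). *Tap1*, the head-to-head neighbor of *Psmb9*, had 6936, 2586 and 2173 normalized counts in the control and 6132, 5400 and 5476 in the treated tumors (log2 fold change 0.74, adjusted p = 0.383 from limma), and 1.26 without control tumor 1 (adjusted p = 0.0015) and 0.42 without control tumor 3 (adjusted p = 0.807). The exons of *Tap1* and *Psmb9* overlap over 212 bases on opposite strands, 5.8% of the exon bases of *Psmb9*, and reads there can be assigned to either gene where a library does not keep the strand. *H2-K1*, an MHC class I heavy chain, had a log2 fold change of 0.26 and *B2m*, its light chain, of 0.38 (0.49 and 0.59 without control tumor 1). With control tumor 3 left out instead, they had 0.11 and 0.24.

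Of the 5 regulators of subunit genes, 5 had a log2 fold change above 0 and 1 had an unadjusted p under 0.05 in the higher direction, where 8.77% of all genes did. Without control tumor 1, 2 of the 5 passed after adjustment, both higher, beside 12% of all genes tested in that direction. *Nfe2l1*, which encodes NRF1, the transcription factor that raises subunit genes when the proteasome is inhibited, had 2474, 2025 and 1606 normalized counts in the control and 2898, 3052 and 3078 in the treated tumors. The groups did not overlap (log2 fold change 0.59, adjusted p = 0.233 from limma; 0.74 without control tumor 1, adjusted p = 0.0111). The 6 members whose windows hold ARE letters differed in direction, with log2 fold changes of −0.53 for *Psmb5*, −0.43 for *Psmb6*, −0.16 for *Psmd9*, −0.08 for *Psmc6*, −0.02 for *Psmd12* and 0.36 for *Psme4*. *Nfe2l2*, which encodes NRF2, was above 0 too (log2 fold change 0.39, adjusted p = 0.330 from limma; 0.56 without control tumor 1, adjusted p = 0.0261). Of 9 proteasome partners outside the naming rule, 3 were above 0. *Sem1*, a small lid subunit, had 1410, 1240 and 1419 normalized counts in the control and 1198, 891 and 913 in the treated tumors (log2 fold change −0.45, adjusted p = 0.262 from limma), and *Pomp*, the maturation factor of the core, had a log2 fold change of 0.18 (0.29 without control tumor 1 and 0.04 without control tumor 2). Among 3 ubiquitin supply genes, *Rps27a*, which encodes ubiquitin fused to a ribosomal protein, was lower in each treated tumor than in each control tumor (log2 fold change −0.78, adjusted p = 0.252 from limma; −1.04 without control tumor 1, adjusted p = 0.0084), and the polyubiquitin gene *Ubb* had a log2 fold change of 0.20 (0.33 without control tumor 1 and 0.07 without control tumor 2).

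Reads of some members are uncertain. A near-identical copy, at least 95% identical over at least 50% of the transcript, was found for 9 members, and apart from *Psme2* and *Psme2b* the copy with most reads was *A730017L22Rik*, at a mean of 29.6 normalized counts beside 965 for *Psmd11*. Exons of 15 members overlap another gene, for 12 of them on the opposite strand. Where the other gene also had more than 100 normalized counts, the overlap took 21.2% of the exon bases of *Psmc3ip* (with *Mlx*), 11.8% of *Psmb7* (with *Nek6*), 10.1% of *Psmd13* (with *Sirt3*) and 8.2% of *Psmc3* (with *Slc39a13*), beside the 5.8% of *Psmb9* given above.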

How the data were processed

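RNA was sequenced from 6 MCA205 tumors, 3 control and 3 FF-10101–treated, grouped by the sample labels, which state that they are biological replicates, so p values measure the spread between tumors. Per the submitters' processing notes and the paper's methods, the authors trimmed reads with fastp 0.19.5, quantified them with Salmon 1.5.1 on the GENCODE vM27 annotation and used DESeq2 1.22.1. The authors deposited log2 values, 1 per gene and tumor, which have the form of a variance-stabilizing transformation. Inverting it gave reads that were whole in 100% of 325854 values (tolerance 0.001, largest gap 4.1e-09). Because Salmon assigns reads shared between transcripts by estimation, counts of near-identical genes are uncertain.

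From these, normalized counts were computed and tested on log2(normalized count + 1) with limma 3.58.1 in R 4.3.3 (lmFit and trended eBayes, group as the only term) over 13963 genes averaging 10 or more, adjusted by the Benjamini-Hochberg method. The test was planned for deposited normalized counts. A fold change on this scale understates that of genes with few reads. The script was tested on simulated data. For ratios, an exact permutation test over tumors (two-sided) was used, adjusted over 5 ratios. A total of 51484 identifiers were named by stable identifier from GENCODE vM21, on another build than the authors' annotation, so no gene coordinates are given except those of the RefSeq promoter windows. *Psme3ip1* and *Paaf1*, in the lists, matched no symbol there. 4 pseudogenes with matching symbols were left out. Transcript length is that of the longest protein-coding transcript. The median length had been planned, and was replaced because partial transcript models made the longest more than 2 times the median in 7 of the 50 members. Copies were found with BLAST 2.17.0.

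The named genes are the 5 interferon-inducible genes, *Psmb5*, *Psmb6*, *Psmb7*, *Psme3* and *Psme4*, the 4 highest and 4 lowest of the other log2 fold changes, members under the minimum, and the extremes of level within a role. Other members were named after their values were seen, such as those past a threshold. The members and lists were chosen with earlier results of these data known. Some genes of the lists of other genes are not reported here and were left out of their counts. Alternatives were pseudocounts of 0.5 and 10, other minimum counts, 75th-percentile scaling, quantile normalization, no trend, array weights, the deposited log2 values, limma-voom on recovered reads, the replicate number as a block and each tumor left out. Removal of length and GC trends was added after seeing the data.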

Additional observations from a re-analysis of the deposited data

How the results depend on the processing

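Direction held for most results. Of 18 named genes, direction turned in *Psme2* without control tumor 2 (−0.0037, within −0.0037 to 0.28 with single tumors left out) and in *Psmd1* with array weights (−0.0375) and with length and GC trends removed without control tumor 3 (−0.0399); the cause was not tested. The count of genes past an adjusted p of 0.05, 6 as reported, was 17 with no minimum count, 3 with a mean of at least 50, 8365 with array weights (weight 0.139 for control tumor 1 and 8.08 for FF-10101 tumor 2) and 1 to 3051 with single tumors left out, the highest without control tumor 1. Members past an adjusted p of 0.05 numbered 0 as reported, 26 with array weights and 0 to 10 with single tumors left out. Members at an unadjusted p under 0.05 numbered 5 as reported, 2 with no trend, 27 with array weights and 0 to 20 with single tumors left out. The 5 were all lower, beside 7.49% of all genes tested. With array weights, 8365 of the 13963 genes tested passed even after adjustment. The share of all genes at the unadjusted threshold is not given for the other settings, so those counts are not read as results about the members. Members whose groups do not overlap numbered 7 as reported, 5 with 75th-percentile scaling, with quantile normalization and with length and GC trends removed, and 7 to 26 with single tumors left out. With all tumors, 9.37% of all genes tested had lower and 10.9% higher treated tumors without overlap. Every treated tumor was above control tumors 2 and 3 for 3970 of 13963 genes and below them for 3586, so these counts are not read as results about the members. With length and GC trends removed, chosen after seeing the data, 10 genes passed, and 3363, 1 and 1 without control tumors 1, 2 and 3; members past an adjusted p numbered 11 without control tumor 1, and members at an unadjusted p under 0.05 numbered 3 with all tumors and 20, 1 and 0 without control tumors 1, 2 and 3. The median of the interferon-inducible genes was then 0.75 without control tumor 1. Same-numbered tumors had correlations of −0.288, −0.0397 and −0.277 in their deviations from the group means, and differently numbered tumors from −0.126 to 0.315. Deviations from the mean of 3 tumors constrain each other, so these values cannot exclude a shared block, and the sample labels state no pairs. With the replicate number as a block, 1 gene passed and 1 member had an unadjusted p under 0.05. With trends removed as well as the block, 1 gene and 2 members did. The log2 ratio differences kept their sign with each tumor left out, between 0.54 and 1.06 (*Psmb8* to *Psmb5*), 0.38 and 1.27 (*Psmb9* to *Psmb6*), 0.42 and 1.26 (*Psmb10* to *Psmb7*), 0.20 and 0.60 (*Psme1* to *Psme3*) and 0.13 and 0.32 (*Psme2* to *Psme3*).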
